A study of Mus musculus with 12 samples.

Results

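The comparison described here sets 3 libraries of macrophages labelled Cbl-b-/- against 3 libraries labelled wild type (WT), across all genes of the deposited count table. The 6 libraries were chosen by their labels, out of 12 libraries in the series, and no measured value was used to choose them. They came from bone-marrow-derived macrophages of the mouse, grown from marrow to day 9 in serum-containing medium with L-cell supernatant as the source of CSF-1, the growth factor that drives macrophage survival and division. The WT libraries carry no named mutation, the Cbl-b-/- libraries are labelled as lacking Cbl-b and no other gene, and the other 6 libraries are labelled Cbl-/- or DKO (for both genes), 3 of each. The labels give neither the mouse strain, the animals' age and sex, nor how either allele was made. Equal amounts of RNA were pooled, per the labels, which do not say what was combined. Whether each replicate had its own animal is not given either, so a p-value here is set by how far libraries of a group differ, and part of that can be technical.

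Cbl-b is an E3 ubiquitin ligase: it binds activated tyrosine kinases and adaptor proteins and attaches ubiquitin to them, which directs them to degradation or changes their traffic. Its close relative Cbl is known for acting on the CSF-1 receptor of macrophages, and Cbl-b is best known as a brake on T cell activation. Both act on proteins, so gene counts read only what follows in the transcriptome.

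The labels were first set against the counts of the targeted gene. Cblb (ENSMUSG00000022637, chromosome 16, 52031225 to 52208048, plus strand, GRCm38) had 62.2, 55.5 and 60.6 CPM (counts scaled to a common library size) in WT 1, 2 and 3, and 54.5, 54.4 and 49.4 CPM in the libraries labelled Cbl-b-/- 1, 2 and 3. The ranges did not overlap, but they lay close together. The log2 fold change was -0.17 (standard error, SE, 0.06), and the adjusted p was 0.46 by edgeR's quasi-likelihood test with Benjamini-Hochberg adjustment, the test behind every adjusted p below. The label is therefore not borne out by the level of the transcript, and the libraries are called labelled Cbl-b-/- throughout, with every direction resting on that label. A gene-level count would miss an allele that spares most of the transcript. Cbl was at 140.2 ± 3.41 CPM in WT and 139 ± 3.04 CPM in the libraries labelled Cbl-b-/- (SD, n = 3), and its log2 fold change was -0.01 (adjusted p = 0.99). In the other labels Cbl was lower, at 51.5 ± 2.34 CPM in Cbl-/- and 37.6 ± 3.05 CPM in DKO (SD, n = 3; adjusted p against WT 7.4e-11 and 2.4e-12). Cblb was higher there than in WT, at 68.5 ± 0.690 CPM in Cbl-/- and 71.7 ± 3.23 CPM in DKO (SD, n = 3, adjusted p = 0.048 and 0.0027). Its level thus does not bear out the Cbl-b part of the DKO label either, with the same limit of a gene-level count.

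Total counts ran from 27822954 to 42007454 per WT library and from 21048103 to 34099547 per library labelled Cbl-b-/-. The library labelled Cbl-b-/- 3 was the least deep and stood apart: on the first principal component of the 6 libraries, which held 43.4% of the variance, it lay at 46.1 and the other 5 between -13.2 and -5.01. The spread between replicates beyond counting error, as edgeR's coefficient of variation, was 5.37% in WT and 7.79% in the libraries labelled Cbl-b-/-. All 24 macrophage markers on a fixed list were measured and none passed the threshold, with a summed level of 36799 to 39419 CPM in WT and 35505 to 38314 CPM in the libraries labelled Cbl-b-/-. Defining markers of T cells (Cd3e), mast cells (Cpa3), red cells (Hba-a1) and granulocytes (Ly6g, Mpo, Elane) were not among the genes analysed here. Every gene of the count table has at least 1 count in WT 1. A gene silent in WT 1 but present in other libraries could thus not be seen, here or in the tests below. The other granulocyte markers, summed over 8 genes of which none passed, were at 41.1 to 49.3 CPM in WT and 51.6 to 64.8 CPM in the libraries labelled Cbl-b-/-, ranges that did not overlap. Mmp8 made up most of that sum, at 31.4 ± 3.04 CPM in WT and 43.6 ± 5.81 CPM in the libraries labelled Cbl-b-/- (SD, n = 3).

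Few genes differed, and most of those that did were higher. Of 12671 genes tested, 62 (0.489%) passed an adjusted p of 0.05, of which 50 (0.395%) were higher and 12 (0.0947%) lower in the libraries labelled Cbl-b-/-. The genes that rose included receptors for complement C5a, chemokines that attract neutrophils, genes induced by the transcription factor NF-kB, and Pira2 and Tarm1, activating receptors related to the paired immunoglobulin-like family. Those that fell included the interferon-induced neighbours Ifi44 and Ifi44l, the Toll-like receptor partner Ly86, the protease gene Plau and the ribosomal protein gene Rpl29. Most changes were small: 12 of the 50 increases and 1 of the 12 decreases reached 2-fold, 21 of the 62 changes lay between 1.5-fold and 2-fold, and 28 were under 1.5-fold. Over all genes tested the median log2 fold change was 0.00, with 50.3% of genes above 0, and over the genes that passed it was 0.61 for increases and -0.67 for decreases.

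In all 62 genes, each of the 3 libraries labelled Cbl-b-/- lay on the same side of each WT library. Such a separation was found in 1914 genes, 15.1% of those tested. The last gene inside the threshold was Ly6a (adjusted p = 0.049), and the first outside was Relb (adjusted p = 0.051), an NF-kB subunit, with a log2 fold change of 0.47 (SE 0.10). Leaving out the library labelled Cbl-b-/- 2 left 35 genes past the threshold, 34 of them among the 62. Leaving out the library labelled Cbl-b-/- 3 left 41, of which 38 were among the 62, and leaving out WT 1 left 37, of which 36 were.

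**Figure D1:**
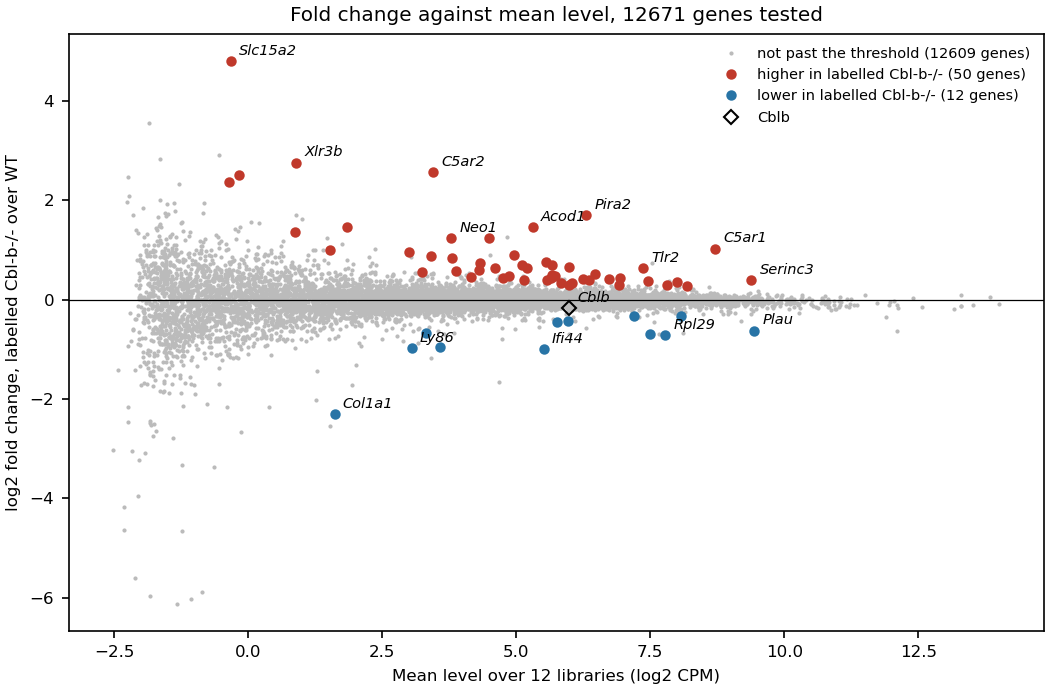
Log2 fold change of the libraries labelled Cbl-b-/- over WT (vertical axis) against the mean level over 12 libraries in log2 CPM (horizontal axis), 1 point per gene tested, with 50 genes higher in red, 12 genes lower in blue and Cblb as an open diamond. Genes past the threshold lie mostly above 0, and those of high level, such as Serinc3 and Plau, passed with small changes.

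Both receptors for the complement fragment C5a rose, and C5ar2 had the largest increase among genes of at least 1 mean log2 CPM. C5ar2, which encodes a C5a receptor that does not couple to G proteins, had 2.69, 2.59 and 2.93 CPM in WT and 15.3, 15.5 and 18.1 CPM in the libraries labelled Cbl-b-/-. Every labelled library was thus several times above every WT library, and the log2 fold change was 2.57 (SE 0.12, adjusted p = 4.4e-09). Its neighbour C5ar1, the receptor through which C5a attracts and activates leukocytes, had 252, 297 and 207 CPM in WT and 496, 525 and 529 CPM in the libraries labelled Cbl-b-/-. The groups did not overlap, and the log2 fold change was 1.03 (SE 0.11, adjusted p = 3.5e-04). The genes lie side by side on the minus strand of chromosome 7 (C5ar2 at 16234585 to 16244154 and C5ar1 at 16246743 to 16259540, GRCm38). Within 1 Mb of them Slc1a5, a glutamine transporter gene, was also higher, at 51.3 ± 1.23 CPM in WT and 64.9 ± 3.97 CPM in the libraries labelled Cbl-b-/- (SD, n = 3). The other 9 genes tested between C5ar2 and Slc1a5 did not pass, and Slc1a5 lost its call without WT 2 or the libraries labelled Cbl-b-/- 1 or 2.

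Of 19 chemoattractant receptor genes tested, C5ar1 and C5ar2 rose, none fell, and 17 did not pass, with a median log2 fold change of 0.14. The share that passed among all genes tested, to be set beside this and the later list counts, was 0.489%. Ccr2, the receptor for the monocyte attractant Ccl2, was at 44.2 ± 1.31 CPM in WT and 59.2 ± 3.97 CPM in the libraries labelled Cbl-b-/- (SD, n = 3), which did not pass (log2 fold change 0.42, adjusted p = 0.19). C3ar1, the receptor for complement C3a, was at 1294 ± 39.1 CPM in WT and 1149 ± 55.9 CPM in the libraries labelled Cbl-b-/- (SD, n = 3, adjusted p = 0.36). The complement gene C3 itself rose from 14.5 ± 0.951 to 24.6 ± 6.81 CPM (SD, n = 3, log2 fold change 0.77, SE 0.14, adjusted p = 0.015). The library labelled Cbl-b-/- 2 was the high one for C3, at 32.4 CPM against 21.6 and 19.8 CPM in its partners. The call was lost without WT 1 or WT 3 and in the model of 6 libraries.

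**Figure D2:**
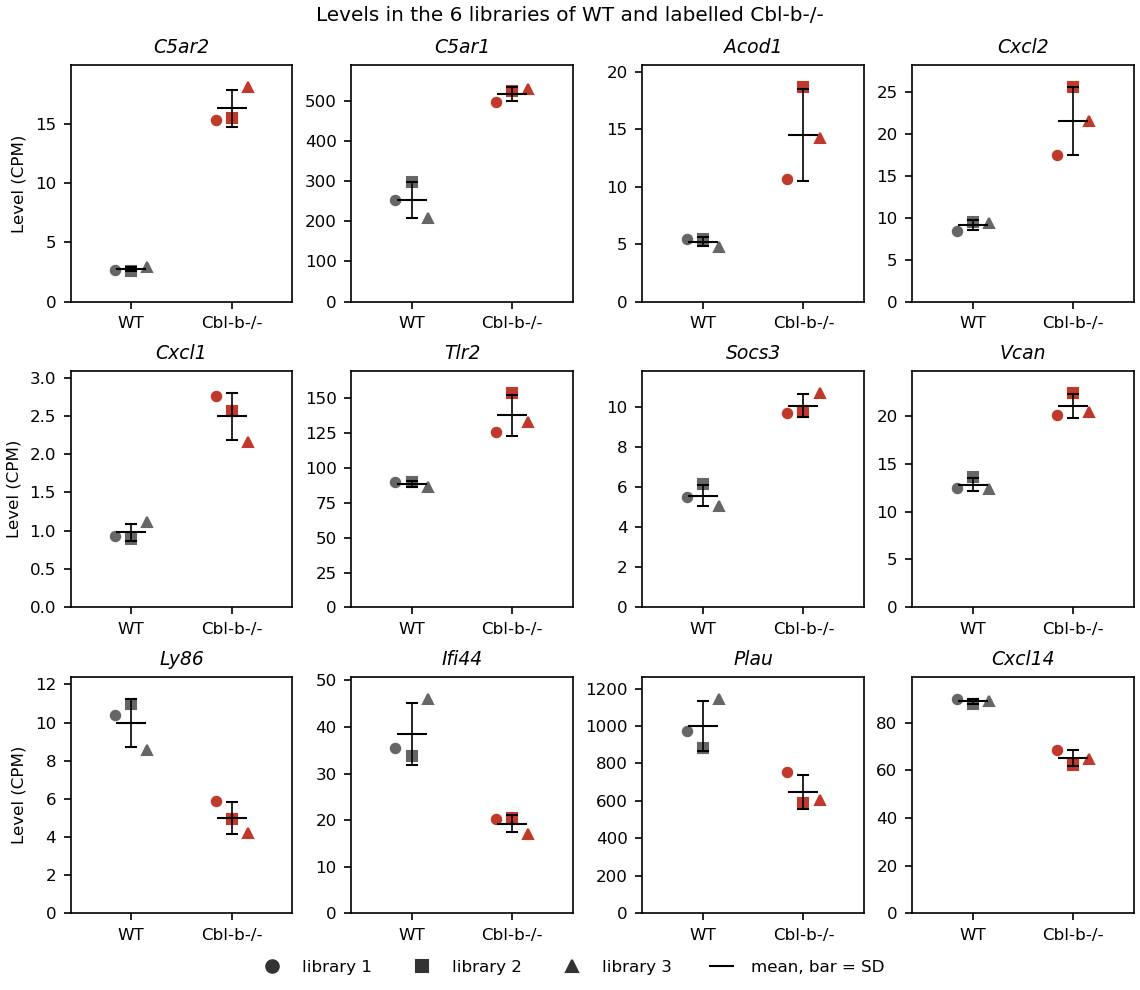
Levels in CPM (vertical axes, linear from 0) of 12 genes in the 3 WT libraries and the 3 libraries labelled Cbl-b-/- (red), 1 point per library with the mean and SD. The groups do not overlap for any of the 12, and library 2 is the highest of the labelled group for Acod1, Cxcl2 and Tlr2.

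Chemokine ligands, the secreted proteins that guide leukocytes, moved in both directions. Cxcl2, a neutrophil attractant, had 8.42, 9.52 and 9.36 CPM in WT and 17.5, 25.6 and 21.5 CPM in the libraries labelled Cbl-b-/-. The lowest labelled library was well above the highest WT library, and the log2 fold change was 1.24 (SE 0.12, adjusted p = 4.2e-05). Cxcl1, which lies next to it on chromosome 5 and acts on the same receptor, rose from a lower level: 0.928, 0.898 and 1.11 CPM in WT against 2.76, 2.57 and 2.16 CPM (log2 fold change 1.37, SE 0.24, adjusted p = 0.011). Its call was lost without WT 1, WT 2 or the library labelled Cbl-b-/- 2. Cxcl10, an attractant of T cells that interferons and NF-kB induce, had 11.7, 10.9 and 11.9 CPM in WT and 19.7, 23.0 and 21.6 CPM in the libraries labelled Cbl-b-/- (log2 fold change 0.90, SE 0.17, adjusted p = 0.024). That call was lost without any WT library and without the libraries labelled Cbl-b-/- 2 or 3. It was also lost with limma voom and without the filter on low counts.

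Cxcl16, a chemokine that also exists in a membrane-bound form, rose by a small amount, from 109 ± 4.01 to 134 ± 4.35 CPM (SD, n = 3, adjusted p = 0.013), and lost its call without WT 1, WT 3 or the libraries labelled Cbl-b-/- 2 or 3. Cxcl14 was the only chemokine ligand that fell: it had 90.1, 87.7 and 89.2 CPM in WT and 68.6, 62.3 and 64.8 CPM in the libraries labelled Cbl-b-/- (log2 fold change -0.45, SE 0.06, adjusted p = 0.0013). Of 18 chemokine ligand genes tested, 4 rose, 1 fell and 13 did not pass, and the median log2 fold change was 0.23. Ccl2, the abundant monocyte attractant, was at 137 ± 13.9 CPM in WT and 153 ± 16.7 CPM in the libraries labelled Cbl-b-/- (SD, n = 3), with overlapping groups (adjusted p = 0.73). Without the library labelled Cbl-b-/- 2, 1 member rose and 1 fell, and without the library labelled Cbl-b-/- 3, 2 rose and 1 fell.

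Among inflammatory cytokines and NF-kB target genes, 4 of 19 tested rose, none fell and 15 did not pass. Their median log2 fold change was 0.42, against 0.00 over all genes, and 16 of the 19 lay above 0. Acod1, which makes the antimicrobial metabolite itaconate, had 5.42, 5.47 and 4.79 CPM in WT and 10.7, 18.7 and 14.2 CPM in the libraries labelled Cbl-b-/-. All labelled libraries were above all WT libraries, but they differed among themselves, and the log2 fold change was 1.47 (SE 0.16, adjusted p = 2.3e-04). Socs3, a feedback inhibitor of cytokine receptors, had 5.52, 6.13 and 5.07 CPM in WT and 9.70, 9.71 and 10.7 CPM in the libraries labelled Cbl-b-/- (log2 fold change 0.84, SE 0.11, adjusted p = 0.0013). Icam1, the adhesion molecule that leukocyte integrins bind, had 82.4, 81.4 and 75.0 CPM in WT and 100.3, 116 and 108 CPM in the libraries labelled Cbl-b-/- (log2 fold change 0.44, SE 0.06, adjusted p = 0.0024).

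Tnf, the cytokine tumour necrosis factor, had 51.6, 51.9 and 54.2 CPM in WT and 60.9, 77.3 and 73.5 CPM in the libraries labelled Cbl-b-/- (log2 fold change 0.42, SE 0.08, adjusted p = 0.016). Its call was lost without WT 1, WT 2 or the libraries labelled Cbl-b-/- 2 or 3. Clec4e, a receptor for mycobacterial glycolipid, was at 86.9 ± 6.29 CPM in WT and 146 ± 28.5 CPM in the libraries labelled Cbl-b-/- (SD, n = 3) and did not pass (log2 fold change 0.74, SE 0.16, adjusted p = 0.096). Il6, Il12b and Il23a were not analysed here, so any change in them is unknown, and Il1a and Nos2 were too low to test. Beside these genes, the summed granulocyte markers above, mostly Mmp8, were higher in the libraries labelled Cbl-b-/-. Of 11 monocyte markers, 9 lay above 0 (median log2 fold change 0.38, range of summed levels 1416 to 1677 CPM in WT and 1468 to 1686 CPM in the libraries labelled Cbl-b-/-). That median was 0.21 without WT 1, 0.18 without the library labelled Cbl-b-/- 2 and 0.12 with limma voom. In bulk RNA, more cells of a type and more RNA per cell cannot be told apart, and the part of such cells in these changes was not tested.

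On a list of NF-kB subunits, feedback inhibitors and other genes of the pathway, Birc3, Tnfaip2 and Ikbke rose, none of which encodes a subunit. They were 3 of 23 tested, none fell and 20 did not pass, and the median log2 fold change was 0.15 (0.23 without WT 3). Birc3, a ubiquitin ligase of the tumour necrosis factor receptor complex, had 26.1, 26.2 and 25.9 CPM in WT and 32.8, 36.0 and 33.8 CPM in the libraries labelled Cbl-b-/- (log2 fold change 0.39, SE 0.06, adjusted p = 0.0043). Tnfaip2, a gene induced by tumour necrosis factor, rose from 134 ± 6.52 to 174 ± 12.2 CPM (SD, n = 3, adjusted p = 0.0075). Ikbke, a kinase of the interferon and NF-kB pathways, rose from 34.5 ± 1.43 to 43.8 ± 3.37 CPM (SD, n = 3, adjusted p = 0.033). The call of Tnfaip2 was lost without WT 3 or the libraries labelled Cbl-b-/- 2 or 3, and that of Ikbke with limma voom, without any WT library and without the libraries labelled Cbl-b-/- 1 or 2. The members next in order, Relb, Tnip1 and Nfkbie, had adjusted p-values of 0.051, 0.078 and 0.11, and Nfkbia, the inhibitor IkBa, was at 89.3 ± 5.40 CPM in WT and 112 ± 15.2 CPM in the libraries labelled Cbl-b-/- (SD, n = 3, adjusted p = 0.12). With DESeq2 in place of edgeR, 8 of the 23 rose, and without the library labelled Cbl-b-/- 2, 1 did.

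**Figure D3:**
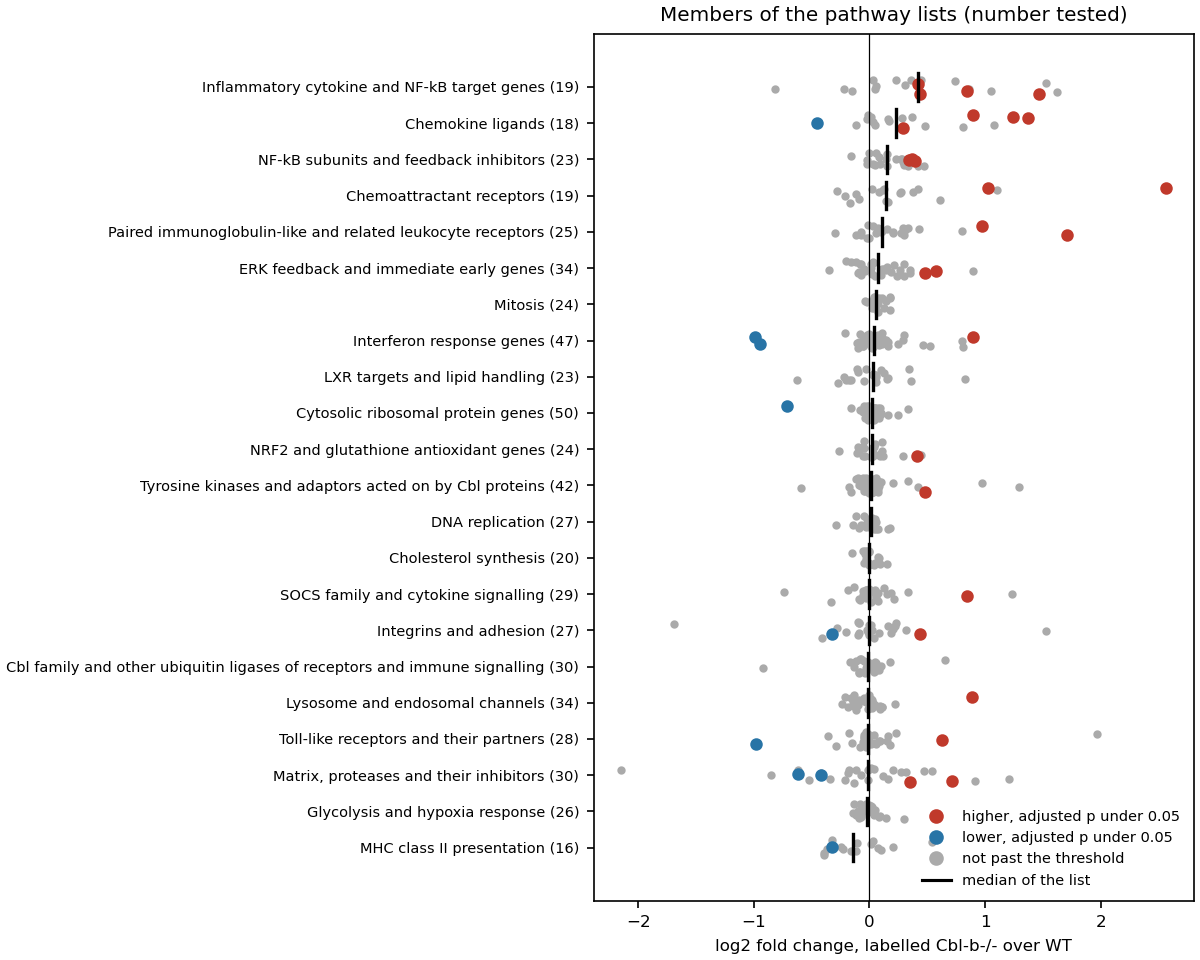
Log2 fold change (horizontal axis) of every tested member of 22 pathway lists, 1 point per gene, ordered by the list median (black bar), with genes past the threshold in red (higher) or blue (lower). The inflammatory list has the highest median, at 0.42, and the MHC class II list the lowest, at -0.14.

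A short sequence was found in the promoters of some of the genes that rose, but not of most. The letters GGANNTTCC, a stretch within the sequences that NF-kB binds, were searched on both strands (GGAANNTCC on the other) in the 250 bases before to 50 bases after each gene's start, in promoter sequences from RefSeq (GRCm38.p6). The motif overlaps the core GGAA of the ETS factors. It was found in 8 of the 42 genes higher in the libraries labelled Cbl-b-/- that had a promoter in the table (19%), in 1 of 7 lower genes (Pdlim5), in 5.58% of the 9795 tested genes with a promoter and in 4.26% of all 32851 promoters. The motif was chosen with these results known, and a match describes letters, not a bound site. Below are 61 bases around the match for 6 members, 5′ to 3′ on the gene's strand, with the match in capitals.
Cxcl2: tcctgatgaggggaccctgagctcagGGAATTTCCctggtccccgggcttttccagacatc
Cxcl1: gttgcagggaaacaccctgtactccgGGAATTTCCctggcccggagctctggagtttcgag
Acod1: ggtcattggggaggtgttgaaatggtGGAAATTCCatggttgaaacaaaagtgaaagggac
Icam1: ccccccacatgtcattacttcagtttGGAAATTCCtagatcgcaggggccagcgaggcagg
Cxcl10: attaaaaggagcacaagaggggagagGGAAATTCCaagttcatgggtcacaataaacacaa
Tnf: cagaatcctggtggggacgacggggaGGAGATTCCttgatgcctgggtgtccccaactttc

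The windows lie at chr5:90903777-90903837 (Cxcl2, plus strand), chr5:90891149-90891209 (Cxcl1, plus), chr14:103046901-103046961 (Acod1, plus), chr9:21015761-21015821 (Icam1, plus), chr5:92349013-92349073 (Cxcl10, minus) and chr17:35202185-35202245 (Tnf, minus). The matches end 88 bases before the start in Cxcl2, 62 in Cxcl1, 77 in Acod1, 145 in Icam1, 150 in Cxcl10 and 204 in Tnf. Cxcl1 and Cxcl2 carry the same letters in the match, as do Acod1, Icam1 and Cxcl10. The others of the 8 were Ier3 and Tnfaip2. The window of Cxcl10 also lies within the gene Art3 on the annotation. For Icam1 and Tnfaip2 the bases after the RefSeq start were not found in the GENCODE transcripts of the gene, so their distances hold for the RefSeq start only.

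Among Toll-like receptors and their partner proteins, Tlr2 rose and the partner Ly86 fell. Tlr2, the receptor for bacterial lipoproteins, had 89.9, 90.1 and 86.3 CPM in WT and 126, 154 and 133 CPM in the libraries labelled Cbl-b-/- (log2 fold change 0.63, SE 0.07, adjusted p = 2.3e-04). Ly86, also called MD-1, which pairs with the receptor-like protein Cd180, had 10.4, 11.0 and 8.54 CPM in WT and 5.89, 4.92 and 4.23 CPM in the libraries labelled Cbl-b-/- (log2 fold change -0.98, SE 0.16, adjusted p = 0.0057). Each labelled library was thus below each WT library for Ly86 and above each for Tlr2, and both calls held when any 1 of the 6 libraries was left out. Cd180 itself was at 464 ± 51.2 CPM in WT and 379 ± 36.2 CPM in the libraries labelled Cbl-b-/- (SD, n = 3), with overlapping groups and an adjusted p of 0.15. Of 28 Toll-like receptors and partners tested, 1 rose, 1 fell and 26 did not pass, and the median log2 fold change was -0.01.

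Of 25 paired immunoglobulin-like and related leukocyte receptors tested, Pira2 and Tarm1 rose, none fell and 23 did not pass. The median log2 fold change was 0.11, and 0.04 without the library labelled Cbl-b-/- 2. Pira2, which signals through the common Fc receptor chain, had 24.0, 29.3 and 17.9 CPM in WT and 77.5, 80.5 and 75.7 CPM in the libraries labelled Cbl-b-/- (log2 fold change 1.71, SE 0.13, adjusted p = 3.2e-05). Tarm1, a related activating receptor, had 3.21, 3.57 and 3.25 CPM in WT and 6.27, 6.88 and 6.52 CPM in the libraries labelled Cbl-b-/- (log2 fold change 0.97, SE 0.11, adjusted p = 3.5e-04). The gene models Gm14548 and Gm10693 beside Pira2 were also higher (log2 fold changes 0.70 and 1.46). The 4 genes lie within 412 kb (chromosome 7, 3486500 to 3898120), among 17 genes tested. Pirb, the inhibitory member of the family, and the gene models Gm15922, Gm15448 and Gm15925 were tested in that stretch and did not pass. Members of this family resemble each other in sequence, so reads can be split between them. The values of Pira2, Gm14548 and Gm10693 are thus uncertain. Lilra6, next to the cluster, had 15.3, 14.5 and 15.3 CPM in WT and 18.7, 18.6 and 17.7 CPM in the libraries labelled Cbl-b-/-, and did not pass (adjusted p = 0.11).

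Outside that family, Fcgr2b, the inhibitory Fc receptor for IgG, rose from 29.5 ± 4.99 to 45.8 ± 4.79 CPM (SD, n = 3, adjusted p = 0.015), and Igsf6 rose from 30.6 ± 1.34 to 41.2 ± 2.08 CPM (adjusted p = 0.019 by edgeR). Gpr84, a receptor for medium-chain fatty acids, had 31.7, 36.0 and 29.4 CPM in WT and 40.5, 60.8 and 52.6 CPM in the libraries labelled Cbl-b-/- (log2 fold change 0.66, SE 0.13, adjusted p = 0.030). Its lowest labelled library lay just above its highest WT library. The calls of Fcgr2b, Igsf6 and Gpr84 were each lost without WT 1, WT 3 or the libraries labelled Cbl-b-/- 2 or 3. Fcgr2b and Gpr84 also lost theirs in the model of 6 libraries. Gpr84 did so with limma voom and without the filter on low counts as well.

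The interferon response did not move as a group. Of 47 interferon response genes tested, Cxcl10 rose, Ifi44 and Ifi44l fell and 44 did not pass, with a median log2 fold change of 0.04. Ifi44 had 35.5, 33.8 and 46.1 CPM in WT and 20.3, 20.4 and 17.1 CPM in the libraries labelled Cbl-b-/- (log2 fold change -0.99, SE 0.16, adjusted p = 0.011). Its neighbour Ifi44l had 10.5, 8.88 and 13.1 CPM in WT and 5.81, 5.11 and 5.79 CPM in the libraries labelled Cbl-b-/- (log2 fold change -0.95, SE 0.16, adjusted p = 0.0066). These genes lie within 32.0 kb of each other on chromosome 3 (151730922 to 151762892) and were both at about the same fraction of their WT level. Both lost their call without the library labelled Cbl-b-/- 2, and Ifi44 also without the library labelled Cbl-b-/- 3. Guanylate-binding proteins, which interferon gamma induces, gave log2 fold changes of 0.46 for Gbp3 and 0.81 for Gbp5, with adjusted p-values of 0.31 and 0.36.

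Of 16 genes of MHC class II presentation, Cd74 fell, none rose and 15 did not pass, and the median log2 fold change was -0.14. Cd74, the invariant chain that escorts class II molecules, had 154, 156 and 151 CPM in WT and 118, 126 and 126 CPM in the libraries labelled Cbl-b-/- (log2 fold change -0.32, SE 0.06, adjusted p = 0.015). The call was lost when WT 1, WT 2 or any of the libraries labelled Cbl-b-/- was left out. The class II chain genes H2-Eb1, H2-Ab1 and H2-Aa had log2 fold changes of -0.39, -0.32 and -0.25, with adjusted p-values of 0.098, 0.22 and 0.34.

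Among genes of matrix and proteolysis, Vcan and Timp2 rose and Plau and Olfml3 fell. Vcan, the proteoglycan versican and also a monocyte marker, had 12.5, 13.6 and 12.3 CPM in WT and 20.1, 22.4 and 20.4 CPM in the libraries labelled Cbl-b-/- (log2 fold change 0.71, SE 0.10, adjusted p = 0.0018). Timp2, an inhibitor of matrix metalloproteinases, rose from 179 ± 10.1 to 227 ± 4.67 CPM (SD, n = 3, adjusted p = 0.0075). Plau, the urokinase plasminogen activator, had 974, 884 and 1147 CPM in WT and 754, 589 and 605 CPM in the libraries labelled Cbl-b-/- (log2 fold change -0.62, SE 0.09, adjusted p = 0.0027). Olfml3, a secreted protein gene, fell from 83.3 ± 1.61 to 62.0 ± 4.78 CPM (SD, n = 3, adjusted p = 0.0079). These were 4 of 30 tested, with a median log2 fold change of -0.01. Timp2 lost its call without WT 3 or the library labelled Cbl-b-/- 3, Olfml3 without the libraries labelled Cbl-b-/- 2 or 3, and Plau in the model of 6 libraries. Col1a1, a collagen of stromal cells, was also lower, at 1.19, 1.21 and 2.64 CPM in WT and 0.348, 0.450 and 0.138 CPM in the libraries labelled Cbl-b-/- (log2 fold change -2.30, SE 0.41, adjusted p = 0.013). At these low levels, Col1a1 lost its call without the libraries labelled Cbl-b-/- 1 or 3, with limma voom and in the model of 6 libraries. Summed stromal and endothelial markers overlapped (106 to 121 CPM in WT, 116 to 118 CPM in the libraries labelled Cbl-b-/-). Col1a1 is a small part of that sum, so the overlap cannot show whether stromal RNA differed.

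Genes tied to the known substrates of Cbl proteins changed little. Of 42 tyrosine kinases and adaptors tested, Fgr rose, none fell, and the median log2 fold change was 0.01. Fgr, a Src-family kinase of myeloid cells, rose from 15.3 ± 0.665 to 21.3 ± 3.16 CPM (SD, n = 3, adjusted p = 0.033). Its call was lost without any WT library and without the libraries labelled Cbl-b-/- 1 or 2. The call of Fgr was also lost with limma voom and in the model of 6 libraries. Csf1r, the CSF-1 receptor and 1 of the macrophage markers, was at 2283, 2295 and 2041 CPM in WT and 2205, 2285 and 2398 CPM in the libraries labelled Cbl-b-/-, so the groups overlapped. Met, the receptor for hepatocyte growth factor, was at 3.46 ± 0.407 CPM in WT and 2.31 ± 0.372 CPM in the libraries labelled Cbl-b-/- (SD, n = 3, adjusted p = 0.19). None of 30 genes on a list of ubiquitin ligases of receptors and immune signalling passed by edgeR, with a median log2 fold change of -0.01. That list also holds a few enzymes that remove ubiquitin, and it leaves out the ligase gene Birc3, which rose.

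Of 34 genes of ERK feedback and the immediate early response, which growth factor signals induce within minutes, Ier3 and Ier2 rose, none fell, and the median log2 fold change was 0.07. Ier2 had 38.5, 43.2 and 48.5 CPM in WT and 58.7, 59.5 and 63.6 CPM in the libraries labelled Cbl-b-/- (log2 fold change 0.48, SE 0.10, adjusted p = 0.029). Ier3 rose from 9.93 ± 0.893 to 14.9 ± 2.56 CPM (SD, n = 3, adjusted p = 0.024). Egr1, a transcription factor of this response, varied more, at 13.8, 19.0 and 18.3 CPM in WT and 27.4, 25.6 and 42.7 CPM in the libraries labelled Cbl-b-/- (log2 fold change 0.90, SE 0.25, adjusted p = 0.27). The calls of Ier2 and Ier3 were both lost without WT 1 or the library labelled Cbl-b-/- 2, among others.

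Growth and metabolism lists gave few calls. No gene of mitosis (24 tested, median log2 fold change 0.06), DNA replication (27, 0.01), cholesterol synthesis (20, -0.00), glycolysis and hypoxia (26, -0.02) or LXR targets (23, 0.03) passed the threshold by edgeR. Of the mitosis genes 22 lay above 0; the one with the smallest p, Aurka, was at 54.7 ± 1.22 CPM in WT and 61.8 ± 0.499 CPM in the libraries labelled Cbl-b-/- (SD, n = 3, adjusted p = 0.28). Sod2, the mitochondrial superoxide dismutase, was the single member of 24 antioxidant genes that rose, from 71.7 ± 3.80 to 95.6 ± 4.14 CPM (SD, n = 3, adjusted p = 0.0024). Mcoln3, an endosomal cation channel, was the single one of 34 lysosomal genes, at 8.02, 7.65 and 8.11 CPM in WT and 15.2, 14.5 and 14.2 CPM in the libraries labelled Cbl-b-/- (log2 fold change 0.89, SE 0.11, adjusted p = 5.5e-04).

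Rpl29 alone fell among 50 genes of cytosolic ribosomal proteins, whose median log2 fold change was 0.02. It had 319.9, 332 and 345 CPM in WT and 184, 220.2 and 204 CPM in the libraries labelled Cbl-b-/- (log2 fold change -0.71, SE 0.09, adjusted p = 6.6e-04). Abhd14b, which lies within 23.5 kb of it on chromosome 9 (106429454 to 106452923), fell from 13.3 ± 0.746 to 8.46 ± 0.593 CPM (SD, n = 3, adjusted p = 0.0041). Abhd14a and Acy1 in the same stretch were tested and did not pass. Abhd14a overlaps Abhd14b on the other strand, and without knowing whether the counting used strand, reads of the pair cannot be told apart. Rpl29 has processed copies elsewhere in the genome, so its counts are uncertain. Gm47283, a gene model that the annotation places on the Y chromosome (90784738 to 90816464), fell from 253 ± 7.34 to 158 ± 2.91 CPM (SD, n = 3, adjusted p = 5.5e-04). The counts do not show whether its reads come from the Y chromosome alone.

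Of the 62 genes, 29 were on none of the lists. Neo1, the receptor neogenin, had 3.47, 4.18 and 3.18 CPM in WT and 8.97, 9.93 and 6.62 CPM in the libraries labelled Cbl-b-/- (log2 fold change 1.24, SE 0.14, adjusted p = 2.3e-04). Eef1a2, a tissue-restricted form of a translation elongation factor, rose from 13.3 ± 1.14 to 22.4 ± 1.87 CPM (SD, n = 3, log2 fold change 0.75, SE 0.09, adjusted p = 5.5e-04). Serinc3, a membrane protein, changed by little but with little spread: 552, 554 and 531 CPM in WT against 720.0, 705 and 714 CPM (log2 fold change 0.39, SE 0.05, adjusted p = 0.0013). Slc38a6, an amino acid transporter gene, rose from 16.6 ± 0.588 to 25.8 ± 2.07 CPM, and Gprc5b, an orphan receptor, from 11.2 ± 0.230 to 16.9 ± 1.89 CPM (SD, n = 3, both with an adjusted p of 0.0024).

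At the low end of the scale, 3 neighbouring genes of the Xlr family on the X chromosome (73074345 to 73202930) were all higher. Xlr3b had 0.143, 0.641 and 0.715 CPM in WT and 4.33, 2.76 and 2.66 CPM in the libraries labelled Cbl-b-/- (log2 fold change 2.76, SE 0.42, adjusted p = 0.0032). Xlr3a rose from 0.283 ± 0.0659 to 1.64 ± 0.863 CPM and Xlr4a from 1.77 ± 0.162 to 3.53 ± 0.541 CPM (SD, n = 3, adjusted p = 0.013 and 0.046). Genes of this family resemble each other in sequence, so reads can be split between them and their counts are uncertain. Xlr4a lost its call when any library was left out, and Xlr3a without WT 1, WT 2 or the library labelled Cbl-b-/- 3. Both also lost it with limma voom, and Xlr4a with a replicate block and in the model of 6 libraries. Slc15a2, a peptide transporter gene, had 1 count in all WT libraries together and 32 in the libraries labelled Cbl-b-/-. The ratio was 39.9 after scaling for depth (95% interval 6.67 to 1626, counting error only). Slc15a2 was higher still in the other knockout labels, at 1.53 ± 0.268 CPM in Cbl-/- and 1.05 ± 0.274 CPM in DKO, against 0.349 ± 0.117 CPM (SD, n = 3). Zbtb12 had 0.238, 0.359 and 0.214 CPM in WT and 0.639, 1.22 and 2.57 CPM in the libraries labelled Cbl-b-/- (log2 fold change 2.37, SE 0.50, adjusted p = 0.046). Its call was lost without any WT library or without the libraries labelled Cbl-b-/- 2 or 3. The call of Zbtb12 was also lost with limma voom, with a replicate block and in the model of 6 libraries.

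The remaining genes higher in the libraries labelled Cbl-b-/- were Gsap, Rassf4, Ehd1, Rnd3, Arl5c, Stac2, Traip, Adgrl2, Ly6a and Tbc1d23, with fold changes from 1.22 to 1.48. Rassf4 and Ehd1 were at 229 ± 7.65 and 174 ± 2.20 CPM in WT and at 278 ± 10.5 and 214 ± 14.7 CPM in the libraries labelled Cbl-b-/- (SD, n = 3). Pdlim5, a scaffold protein of the actin cytoskeleton, was the remaining gene that fell, from 336 ± 26.3 to 269 ± 8.64 CPM (SD, n = 3, adjusted p = 0.025). Of these genes, only Tbc1d23 kept its call when each of the 6 libraries was left out in turn. Across all 62 genes, 29 did so.

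The genes around Cblb were examined because a targeted allele is carried with its chromosomal neighbourhood. Of 20 genes tested within 5 Mb of Cblb, 1 passed, and the median log2 fold change was 0.03. It was Tbc1d23, a regulator of vesicle traffic 4.96 Mb away, with 78.3, 75.1 and 75.6 CPM in WT and 114, 107 and 108 CPM in the libraries labelled Cbl-b-/- (log2 fold change 0.52, SE 0.08, adjusted p = 0.0024). Alcam, the nearest gene tested at 0.04 Mb, differed by -0.07 on the log2 scale (SE 0.07). Cd47, the signal that protects cells from phagocytosis, lies 2.12 Mb away on the other side, with 0.22 (SE 0.06, adjusted p = 0.25). Of 391 genes tested on chromosome 16, 2 passed (0.512%), Tbc1d23 and Slc15a2, close to the 0.489% of all genes tested. Slc15a2 was higher still in Cbl-/- and DKO.

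**Figure D4:**
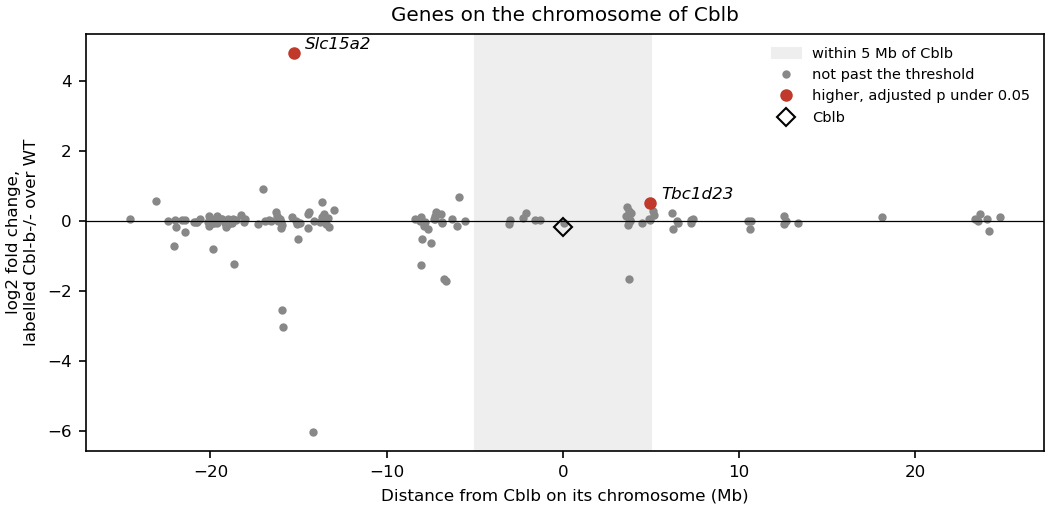
Log2 fold change of the libraries labelled Cbl-b-/- over WT (vertical axis) against distance from Cblb on its chromosome in Mb (horizontal axis), 1 point per gene tested. Of the genes within 5 Mb (grey band), Tbc1d23 at 4.96 Mb passed the threshold (red), and Cblb itself (open diamond) lies at -0.17.

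The same genes were then read in the libraries labelled Cbl-/- and DKO, as contrasts with the libraries labelled Cbl-b-/- in the same model of 12 libraries, whose estimate of the spread includes WT. Between the libraries labelled Cbl-b-/- and Cbl-/-, 934 of 12671 genes differed (7.37%), 412 higher and 522 lower in the libraries labelled Cbl-b-/-. Of the 50 genes higher than in WT, 24 were lower in the libraries labelled Cbl-b-/- than in Cbl-/-, 3 were higher, and 23 did not pass. Between the libraries labelled DKO and Cbl-b-/-, 4211 genes differed (33.2%), 2237 higher and 1974 lower in DKO. Of the 50 genes, 28 were higher still in DKO, 10 were lower, and 12 did not pass. The genes were chosen by their difference from WT, and these contrasts share the libraries labelled Cbl-b-/- with that choice, so their counts are a description.

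Acod1, Tlr2 and Ikbke, genes of the inflammatory response, stood between WT and the other knockout labels. Acod1 was at 5.23 ± 0.380 CPM in WT, 14.5 ± 3.99 in the libraries labelled Cbl-b-/-, 34.4 ± 1.97 in Cbl-/- and 103 ± 5.32 in the libraries labelled DKO (SD, n = 3). Tlr2 was at 138 ± 14.3 CPM in the libraries labelled Cbl-b-/-, 219.7 ± 2.20 in Cbl-/- and 215 ± 14.8 in DKO. Ikbke followed the same order as Acod1, at 43.8 ± 3.37, 66.2 ± 3.39 and 82.5 ± 4.49 CPM. For each of these, the libraries labelled Cbl-b-/- differed from Cbl-/- (adjusted p = 2.7e-05, 8.1e-06 and 3.2e-05) and from DKO (adjusted p = 8.5e-10, 2.7e-06 and 5.6e-08).

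C5ar2, C5ar1 and Mcoln3 showed another order, with their lowest levels in DKO. C5ar2 was at 16.3 ± 1.57 CPM in the libraries labelled Cbl-b-/-, 24.7 ± 1.47 in Cbl-/- and 1.06 ± 0.230 in the libraries labelled DKO (SD, n = 3), which is below the WT level of 2.74 ± 0.174 CPM. C5ar1 was at 517 ± 17.8, 786 ± 100.3 and 104 ± 8.66 CPM in the same order, with 252 ± 44.6 CPM in WT. Mcoln3 was at 14.6 ± 0.540, 15.4 ± 2.03 and 4.58 ± 0.519 CPM, and its levels in the single knockout labels did not differ beyond their spread (log2 difference -0.08, SE 0.11, adjusted p = 0.75). Against the libraries labelled Cbl-b-/-, the log2 fold change in DKO was -3.92 (SE 0.14) for C5ar2, -2.31 (SE 0.12) for C5ar1 and -1.67 (SE 0.11) for Mcoln3, with adjusted p-values of 7.4e-12, 3.0e-09 and 1.9e-08.

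Slc38a6, Stac2 and Tbc1d23 were the 3 genes higher in the libraries labelled Cbl-b-/- than in both WT and Cbl-/-. Tbc1d23 was at 76.3 ± 1.74 CPM in WT, 109 ± 3.63 in the libraries labelled Cbl-b-/-, 48.2 ± 1.49 in Cbl-/- and 120.3 ± 17.0 in DKO (SD, n = 3). Slc38a6 was at 25.8 ± 2.07 CPM in the libraries labelled Cbl-b-/-, 17.9 ± 1.68 in Cbl-/- and 37.0 ± 3.54 in DKO. Both thus differed between the libraries labelled Cbl-b-/- and Cbl-/- (log2 differences 1.18 and 0.53, adjusted p = 3.5e-08 and 0.0017).

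Among the 12 genes lower than in WT, 5 were lower and 4 higher in the libraries labelled Cbl-b-/- than in Cbl-/-, and 3 did not pass. Ly86 was at 5.01 ± 0.838 CPM in the libraries labelled Cbl-b-/- and 4.95 ± 0.852 in DKO, against 12.9 ± 1.92 in Cbl-/- and 9.97 ± 1.28 in WT (SD, n = 3). Rpl29 was at 338 ± 9.49 CPM in Cbl-/- and 332 ± 12.5 in WT, against 203 ± 18.1 in the libraries labelled Cbl-b-/- and 5.66 ± 1.25 in DKO. Abhd14b followed, at 13.2 ± 1.31 CPM in Cbl-/-, 8.46 ± 0.593 in the libraries labelled Cbl-b-/- and 4.67 ± 0.300 in DKO. Ifi44l showed another order: it was at 0.0768 ± 0.0833 CPM in Cbl-/-, 5.57 ± 0.397 in the libraries labelled Cbl-b-/-, 10.8 ± 2.14 in WT and 29.9 ± 2.15 in DKO. Cxcl14 was at 89.0 ± 1.23 CPM in WT, 65.2 ± 3.20 in the libraries labelled Cbl-b-/-, 45.1 ± 1.12 in Cbl-/- and 16.6 ± 1.31 in DKO.

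**Figure D5:**
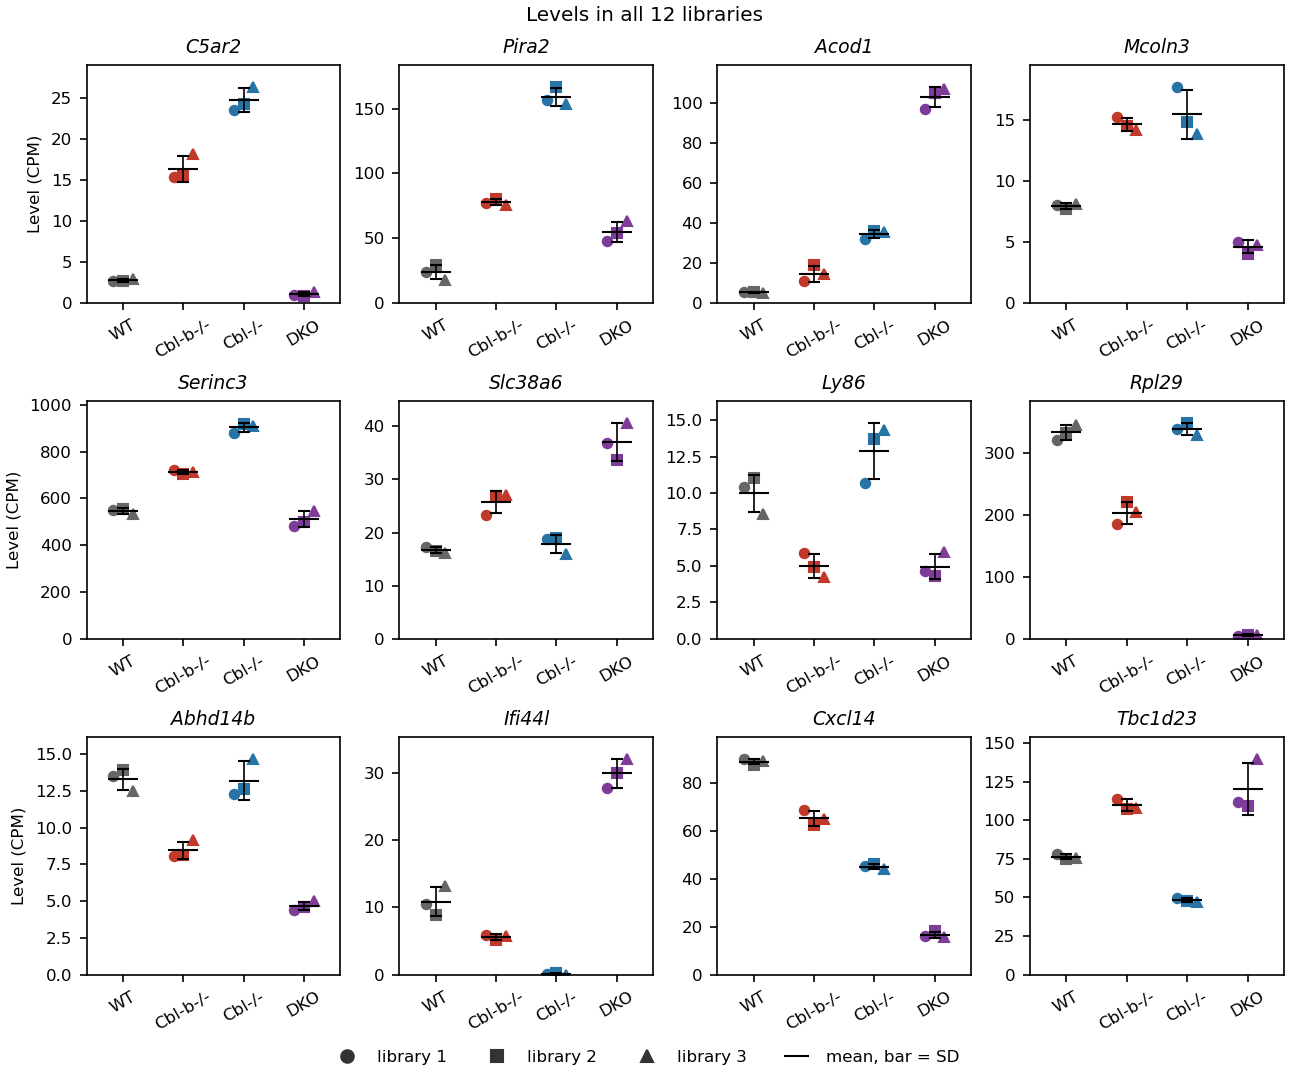
Levels in CPM (vertical axes, linear from 0) of 12 genes in all 12 libraries, 3 for each genotype label, with the mean and SD. C5ar2 and Mcoln3 are highest in the single knockout labels, Acod1 is highest in DKO, and Rpl29 and Abhd14b are at WT levels in Cbl-/- but lower in the libraries labelled Cbl-b-/- and DKO.

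The libraries labelled Cbl-b-/- were uneven in the level of the genes that passed. Over the 50 genes that rose, library 2 was the highest of its group in 26, library 3 in 15 and library 1 in 9, and library 1 was the lowest in 29. Genes on several lists shared this order: Acod1, Cxcl2, Tlr2, Icam1, Tnf and Gpr84 were all highest in library 2 and lowest in library 1. C5ar2, C5ar1, Fcgr2b, Rnd3 and Slc38a6 had their highest level in library 3. Over the same 50 genes the WT libraries were uneven too: WT 2 was the highest of its group in 27, and WT 3 was the lowest in 26.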

How the data were processed

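Poly(A) RNA of 12 macrophage samples was sequenced from stranded libraries, per the labels' protocols. The authors deposited read counts per gene, whole numbers without normalization, for 15555 genes, each with at least 1 count in WT 1. The genome build was GRCm38.p5, per the submitters' processing notes, while no source used here names the aligner, the counting tool or whether it used strand. Gene positions came from GENCODE for GRCm38.

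One edgeR model (edgeR 4.0.16, R 4.3.3) held all 12 libraries after filterByExpr and TMM scaling, with robust quasi-likelihood; 12671 genes were tested, with Benjamini-Hochberg adjustment over all of them and a threshold of 0.05. CPM were computed from the counts with the TMM factors. Fold changes are log2. The scripts were tested on simulated data. Alternatives were other scalings and filters, DESeq2 1.42.0, limma voom (limma 3.58.1), a replicate block, a model of the 6 libraries alone and each library left out.

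The comparison, the 32 gene lists, which hold 749 genes of which 657 were tested, the motif and the tests were chosen with earlier results of these data known, so the lists are no independent evidence of their direction. Named are Cbl and Cblb, genes past the threshold (with per-library values or mean ± SD for the 15 largest increases and 10 largest decreases of at least 1 mean log2 CPM), up to 4 other members of each list with the smallest p, and genes within 5 Mb of Cblb. Pirb, Gm15922, Gm15448, Gm15925, Abhd14a, Acy1 and Csf1r are outside it, picked once their values had been seen.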

Additional observations from a re-analysis of the deposited data

How the results depend on the processing

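Over 14 alternatives, no gene past the threshold changed its direction, and 28 of the 62 kept the threshold wherever they had a value. DESeq2 found 145 genes, 97 higher and 48 lower, among them all 62. A fit of the 6 libraries alone gave 21 lower genes. Leaving out 1 library at a time gave 35 to 75 genes in all, 26 to 49 higher and 7 to 26 lower. The lowest total came without the library labelled Cbl-b-/- 2 and the highest without the library labelled Cbl-b-/- 1. The replicate numbers did not pair the libraries: same-numbered libraries had correlations of -0.02, -0.00 and -0.03 between their deviations from the group means. With the replicate block 60 genes passed, 56 of them among the 62, and differently numbered pairs had correlations of -0.07 to 0.09. Scaling by total counts moved the median of all genes by 0.02 (log2) and gave 72 genes. The median SE of the log2 fold change over all genes tested was 0.09, and 958 genes had an unadjusted p under 0.05, 500 higher and 458 lower.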
